A study of Mus musculus with 7 samples.

Results

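The SLAM family receptors (signalling lymphocytic activation molecules) described here are Cd48, Cd84, Slamf7, Slamf8, Slamf9 and Ly9, 6 of the 24537 genes in the deposited table. They were chosen by name, as the rows whose first symbol or alias is one of these. Their RNA was measured in microglia, macrophages that live in the brain, in 7 libraries sorted as CD45-intermediate CX3CR1+ cells from C57BL/6 mice bearing the 005 glioma, at day 35 after implantation. The groups were control IgG (2 libraries), anti-CTLA4, which blocks an inhibitory receptor of T cells (2 libraries), and depletion of CD4 T cells combined with anti-CTLA4 (3 libraries). All 7 came from tumour-bearing brain, and every CD4-depleted mouse also had the checkpoint antibody, so depletion was not measured on its own. The labels name no separate animals for the replicates, so p-values cover no more than the spread among these libraries, and it may be technical.

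SLAM receptors are immunoglobulin-domain proteins on the surface of blood-derived cells. Most bind a copy of themselves on a neighbouring cell, and tyrosine motifs in their tails recruit the small adaptors SAP (Sh2d1a) and EAT-2 (Sh2d1b1), which turn contact between cells into activation or restraint. CD48 differs in being held by a lipid anchor and in binding CD2 and CD244, while SLAMF8 and SLAMF9 have short tails without those motifs and are found mainly on myeloid cells.

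In the names of the anti-CTLA4 columns the sheet numbers are 29 and 30, whereas the descriptions of those samples give 10 and 11, and the command in the file header gives 29 and 30 to interferon-gamma receptor knockout libraries. These 2 are therefore named by their label, as the libraries labelled anti-CTLA4, and every direction below that involves them rests on that name. Ifngr1, a chain of the interferon-gamma receptor, stood at 204 and 271 FPKM in these 2 libraries against 107 to 143 in the other 5. This level counts all exons of the gene together and is no test of a knockout. FPKM values are fragments scaled to transcript length and to sequencing depth, so they can be compared between genes of a library. They do not correct for a change in the make-up of a library, so comparisons between libraries depend on the scaling, as given below. The depth implied by the steps of low values was 84200000 to 108000000 reads per library, and the members rested on 119 to 19507 reads each.

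All 6 members lie on chromosome 1 (mm10), in a run of related genes. From low to high coordinate the order was Cd244, Ly9 (171588613 to 171607410, minus strand), Slamf7 (171632405 to 171648999, minus), Cd48 (171682055 to 171705257, plus), Slamf1, Cd84 (171839697 to 171890718, plus) and Slamf6. After a gap of 526401 bases came Slamf9 (172475360 to 172478409, plus) and Slamf8 (172581377 to 172590568, minus). Counting ignored strand, and exons of Slamf7 overlap those of Gm37787, an antisense transcript in GENCODE M21, so reads of the latter cannot be told apart from Slamf7. The row of the microRNA gene Mir7683 also lies within Slamf7. No exon of another gene overlapped those of the other 5 members in that annotation.

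The promoters are shown as a description, and a link between their letters and the members' levels was not tested. RefSeq promoters of build GRCm38.p6, the same assembly as mm10, matched 5 of the 6 members. The first 4 sequences are the 250 bases before the annotated start, 5′ to 3′ on the gene's strand, at chr1:172590569-172590818 (minus) for Slamf8, chr1:172475110-172475359 (plus) for Slamf9, chr1:171681742-171681991 (plus) for Cd48 and chr1:171839447-171839696 (plus) for Cd84. The fifth is a 30-base window inside the Slamf8 transcript, chr1:172590519-172590548 (minus), which ends 50 bases after the start. Capitals mark matches to the motifs listed after them.
Slamf8: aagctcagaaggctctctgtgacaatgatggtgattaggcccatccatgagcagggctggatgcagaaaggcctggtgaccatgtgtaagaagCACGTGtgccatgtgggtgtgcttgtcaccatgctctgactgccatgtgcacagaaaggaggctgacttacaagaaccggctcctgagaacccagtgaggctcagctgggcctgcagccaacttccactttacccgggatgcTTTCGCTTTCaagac
Slamf9: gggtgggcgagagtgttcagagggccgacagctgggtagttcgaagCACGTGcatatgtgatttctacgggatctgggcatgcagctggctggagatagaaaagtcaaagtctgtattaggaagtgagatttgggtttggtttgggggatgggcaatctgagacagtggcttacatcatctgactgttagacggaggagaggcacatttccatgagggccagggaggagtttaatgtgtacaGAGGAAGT
Cd48: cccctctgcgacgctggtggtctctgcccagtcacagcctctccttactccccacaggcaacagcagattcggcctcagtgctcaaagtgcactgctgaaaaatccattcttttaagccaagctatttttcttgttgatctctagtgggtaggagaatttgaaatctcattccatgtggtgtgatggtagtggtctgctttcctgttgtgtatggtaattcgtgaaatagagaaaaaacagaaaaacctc
Cd84: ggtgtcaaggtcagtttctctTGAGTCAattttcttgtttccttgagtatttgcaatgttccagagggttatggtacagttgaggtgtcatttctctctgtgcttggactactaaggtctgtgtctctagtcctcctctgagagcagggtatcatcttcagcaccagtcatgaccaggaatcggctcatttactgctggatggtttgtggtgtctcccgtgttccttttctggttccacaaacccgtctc
Slamf8 after the start: tcctccttctgaacatGGGACTTTCCagca

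Motifs were searched as exact letters on both strands over the 300 bases from 250 before to 50 after each start, and were chosen after the promoters had been seen. Slamf8 held 4 of the 6 motifs. Its interferon-type element, GAAA followed by any 2 bases and GAAA, lay on the opposite strand as TTTCGCTTTC from position -15 relative to the start, and 3.44% of 32851 promoters of the same length held such a match. Its kappaB motif, whose letters are the capitals in the last sequence, began at position 37 after the start, and 0.155% of promoters held them. An E-box, CACGTG, lay at -157 in Slamf8 and at -204 in Slamf9, against 7.15% of all promoters. The AP-1 letters TGACTCA or their reverse complement were found in Slamf8, Cd84 and Slamf7, against 5.20%. The PU.1 letters GAGGAAGT were found only in Slamf9 among the 5 promoters, ending at the base before the start, against 3.20%. Cd48 held none of the 6 motifs, and none of the 5 promoters held TTCNNNGAA, the interferon-gamma activated sequence, which 8.30% of promoters held. These are matches of letters and not sites shown to be bound.

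**Figure D1:**
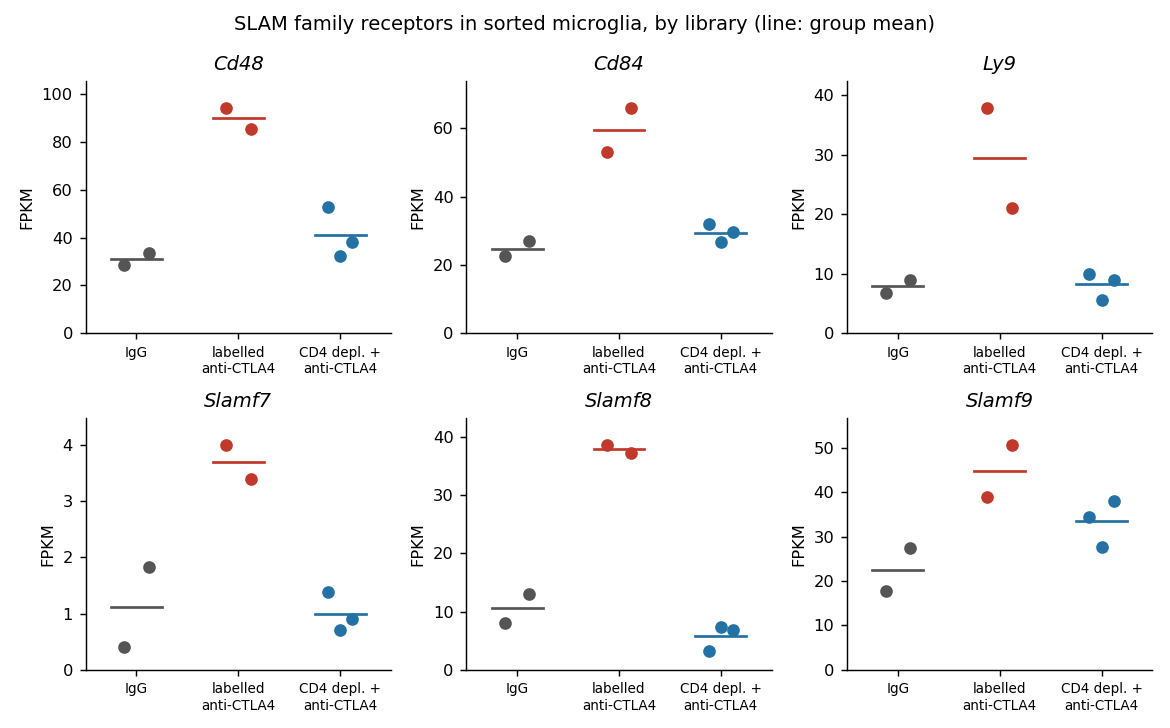
FPKM (vertical axes, each from 0) of the 6 members in each library, grouped as IgG (n = 2), labelled anti-CTLA4 (n = 2) and CD4 depletion with anti-CTLA4 (n = 3); points are libraries and lines are group means. For each member both red points lie above the 5 other points, and Slamf8 is the member whose blue points all lie under the grey ones.

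Every member was highest in the libraries labelled anti-CTLA4. Cd48, which presents itself to CD2 and CD244 on lymphocytes and NK cells, stood at 28.7 and 33.6 FPKM with IgG, at 94.3 and 85.7 in the libraries labelled anti-CTLA4, and at 52.7, 32.1 and 38.3 with CD4 depletion. Cd84, a receptor that binds itself, stood at 22.5 and 26.9 with IgG, at 53.1 and 65.9 in the libraries labelled anti-CTLA4, and at 32.1, 26.6 and 29.7 with depletion. For both, the labelled anti-CTLA4 libraries lay far above all others and the depletion libraries overlapped IgG.

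Ly9 (CD229), another self-binding receptor best known from T and B cells, was at 6.76 and 9.0 FPKM with IgG, at 37.9 and 21.0 in the libraries labelled anti-CTLA4, and at 9.96, 5.61 and 8.95 with depletion. The 2 labelled anti-CTLA4 libraries were further apart for Ly9 than for any other member in FPKM, yet the lower of them was still above every other library. Slamf7, a receptor of NK and plasma cells that also acts in phagocytosis by macrophages, was the scarcest member. It stood at 0.404 and 1.83 with IgG, at 4.0 and 3.4 in the libraries labelled anti-CTLA4, and at 1.39, 0.701 and 0.906 with depletion.

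Slamf8, which restrains the phagocyte oxidase in macrophages, was at 8.11 and 13 FPKM with IgG, at 38.7 and 37.3 in the libraries labelled anti-CTLA4, and at 3.25, 7.32 and 6.87 with depletion. It was the member whose depletion libraries all lay under both IgG libraries. Slamf9, its short-tailed relative, was at 17.6 and 27.4 with IgG, at 38.9 and 50.7 in the libraries labelled anti-CTLA4, and at 34.5, 27.8 and 38.0 with depletion. Its depletion libraries lay between the other groups, all above IgG and all below the libraries labelled anti-CTLA4, by less than 1 FPKM at either edge.

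The order of the mean levels was Cd48, Cd84, Slamf9, Slamf8, Ly9 and Slamf7 both with IgG and in the libraries labelled anti-CTLA4. With IgG, Cd84 and Slamf9 overlapped between libraries, as did Slamf8 and Ly9. In the libraries labelled anti-CTLA4, Slamf8 and Ly9 overlapped. With CD4 depletion the order was Cd48, Slamf9, Cd84, Ly9, Slamf8 and Slamf7, and in each of these 3 libraries Slamf9 stood above Cd84. Of the neighbours in that order, Cd48 and Slamf9, Slamf9 and Cd84, and Ly9 and Slamf8 overlapped between libraries.

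The first comparison set the libraries labelled anti-CTLA4 against IgG. All 6 members were higher under that label, and 6 of 6 passed limma's test (adjusted p under 0.05 over all genes tested), where 9.29% of 13028 genes passed as higher. Their median log2 fold change was 1.37, while that of all genes tested was -0.31. Slamf8 rose most, by 1.79 on the log2(FPKM + 1) scale (SE 0.35, limma adjusted p = 0.0121), followed by Ly9 with 1.73 (SE 0.34) and Cd48 with 1.505 (SE 0.24, limma adjusted p = 0.00967). Slamf7 rose by 1.24 (SE 0.35) and Cd84 by 1.23 (SE 0.18). With a pseudocount of 0.1 Slamf7 was at 1.94 and Slamf8 at 1.88, so their order turned, and with no filter on low values Slamf7 did not pass (limma adjusted p = 0.0601). Slamf9 rose least, by 0.98 (SE 0.26, limma adjusted p = 0.0242). For 6 of 6 members both libraries labelled anti-CTLA4 stood above both IgG libraries, as did 22.8% of all genes, and 54.1% were separated the other way.

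These calls depended on single libraries. Without IgG replicate 2, 4 of 6 members passed, among 675 genes, and without labelled anti-CTLA4 replicate 1, 5 of 6. Without IgG replicate 1, and likewise without labelled anti-CTLA4 replicate 2, 0 of 6 members and 0 of all genes passed, against 4957 genes in all with every library. A group then holds 1 library, which is assumed to vary like the others. The rise of Slamf7 was 0.73 without IgG replicate 1, its lowest value in any run that left out a library.

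RNA of other cells moved with this comparison. The 14 fixed markers of tumour and oligodendrocyte precursor cells summed to 747 to 1058 FPKM with IgG and to 42.0 to 108 in the libraries labelled anti-CTLA4, and 13 of 14 were lower. The 14 endothelial and mural genes moved in the same direction as the members, with sums of 37.1 to 42.3 FPKM with IgG, 203 to 363 in the libraries labelled anti-CTLA4 and 63.8 to 110 with depletion. Of 13 tested, 7 rose and 1 fell in this comparison and 5 fell and 1 rose in the second, and Dcn, a matrix proteoglycan, had 4.04 and -2.42. The 7 neutrophil genes summed to 35.8 to 36.8, 92.9 to 156 and 53.7 to 539 in the same order of groups, and 1 of 5 tested rose in this comparison. The 12 monocyte and recruited macrophage markers summed to 36.35 to 81.53, 66.82 to 117.5 and 58.1 to 1446, and of 9 tested 0 rose and 1 fell. Among them Ly6c2 was at 0.447 and 0.553 with IgG and at 8.4 and 3.4 under the anti-CTLA4 label, and did not pass. The 10 dendritic cell genes summed to 31.8 to 35.9, 38.3 to 46.2 and 32.7 to 52.8, and of 6 tested 3 rose and 1 fell. Of the 3, Cd209a was tested only because the libraries labelled anti-CTLA4 reached 1 FPKM. Cd24a, the one that fell, made up much of the sums with IgG, at 22.4 and 15.3 FPKM. It was at 5.6 and 5.5 in the libraries labelled anti-CTLA4. The part of these cells in the members' rise was not tested. The 20 homeostatic microglia genes, whose products mark resting microglia, summed to 5096 to 6383 FPKM with IgG and to 9220 to 13760, and 7 of 20 were higher, with a median of 0.83. Fewer cells of a type and less RNA per cell cannot be told apart in such sorted bulk libraries. After each library was scaled to the homeostatic list, 0 of 6 members passed and their log2 fold changes were 0.11 (Slamf9) to 0.91 (Slamf8), and the median of all genes was -1.18. With median-of-ratios scaling, 6 of 6 rose by 1.35 to 2.15, and with quantile normalization by 1.20 to 2.03. Of all genes called, 24.4% were higher in the deposited scaling, 51.2% with median-of-ratios, 48.1% with quantile normalization and 1.34% under scaling to the homeostatic list.

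**Figure D2:**
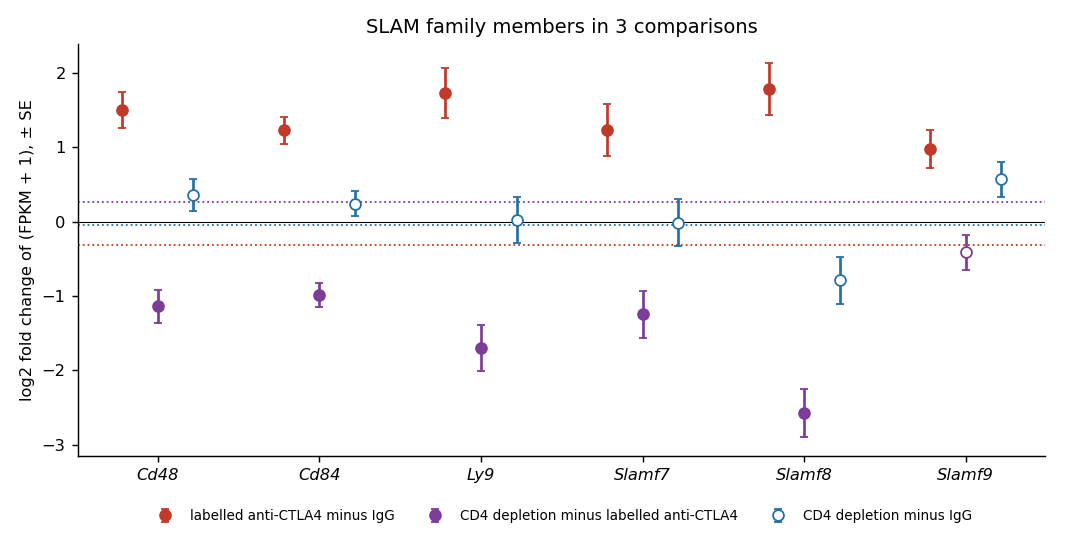
Log2 fold change of FPKM + 1 (vertical axis, bars are SE) of the 6 members in 3 comparisons; filled points have a limma adjusted p under 0.05, and dotted lines give the median of all genes tested in the colour of the comparison. Red points are all filled and above 0, purple points are filled and below 0 except that of Slamf9, and blue points are all open.

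The second comparison set CD4 depletion with the antibody against the libraries labelled anti-CTLA4. With depletion 5 of 6 members were lower by limma's test, where 6.59% of genes passed as lower. Their median over all 6 was -1.19, against 0.27 for all genes. Slamf8 had the largest fall, at -2.58 on the log2(FPKM + 1) scale (SE 0.32, limma adjusted p = 0.0114), and 0.138% of tested genes had a lower one. Ly9 followed with -1.71 (SE 0.31), Slamf7 with -1.25 (SE 0.32), Cd48 with -1.14 (SE 0.22) and Cd84 with -0.99 (SE 0.16). Slamf7 was at -1.84 with a pseudocount of 0.1 and did not pass with no filter on low values (limma adjusted p = 0.0592). Slamf9 did not pass, at -0.41 (SE 0.23, limma adjusted p = 0.206). For 6 of 6 members every depletion library stood below both libraries labelled anti-CTLA4, as did 15.7% of genes, and 44.7% were separated the other way. This comparison shares the labelled anti-CTLA4 libraries with the first, and 13.8% of all genes stood higher in both of them than in the other 5 libraries.

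Without labelled anti-CTLA4 replicate 2, 0 members and 0 genes passed here, against 3827 genes with every library. Without CD4 depletion replicate 3, 3 of 6 members passed, among 917 genes, and without replicate 2 of that group 4 of 6, among 1386. Without labelled anti-CTLA4 replicate 1, 4 of 6 passed. Slamf7 was among those lost in each of these runs. Replicate 1 of the depletion group stood apart from its group in other cells' RNA. The 12 monocyte and recruited macrophage markers summed to 1446 FPKM in it against 58.1 and 72.0 in replicates 2 and 3, and Ccr2, the receptor by which monocytes enter tissue, was at 43.1 against 1.02 and 1.30. Cd48, Cd84, Ly9 and Slamf7 were each highest and Slamf8 lowest in that library within its group. Without it, 5 of 6 members were lower, as with it.

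With libraries scaled to the homeostatic list, Slamf8 was the 1 member of 6 that still passed. It fell by 1.68 on the log2 scale (limma adjusted p = 0.000905), while the log2 fold change of Ly9 was -0.81, of Slamf7 -0.35, of Cd48 -0.24 and of Cd84 -0.09, none of which passed. The limma adjusted p of Slamf8 was below the 0.0114 of the deposited scaling, although the fall was smaller and its SE larger (0.45 against 0.32). Each library is shifted by its list mean, an error that all genes share. That p therefore does not measure the spread of Slamf8 between libraries and is not stronger support. Slamf9 changed sign, to 0.49, and did not pass. That scaling moved the median of all genes to 1.16 and made 98.9% of the calls higher, against 77.6% as deposited. The share was 47.0% with median-of-ratios scaling and 49.9% with quantile normalization, under each of which 5 of 6 members fell. Of the tumour and precursor markers 12 of 14 were higher with depletion, with a median of 1.91, and the homeostatic genes had a median of -0.92, and their part in the members' falls was not tested.

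**Figure D3:**
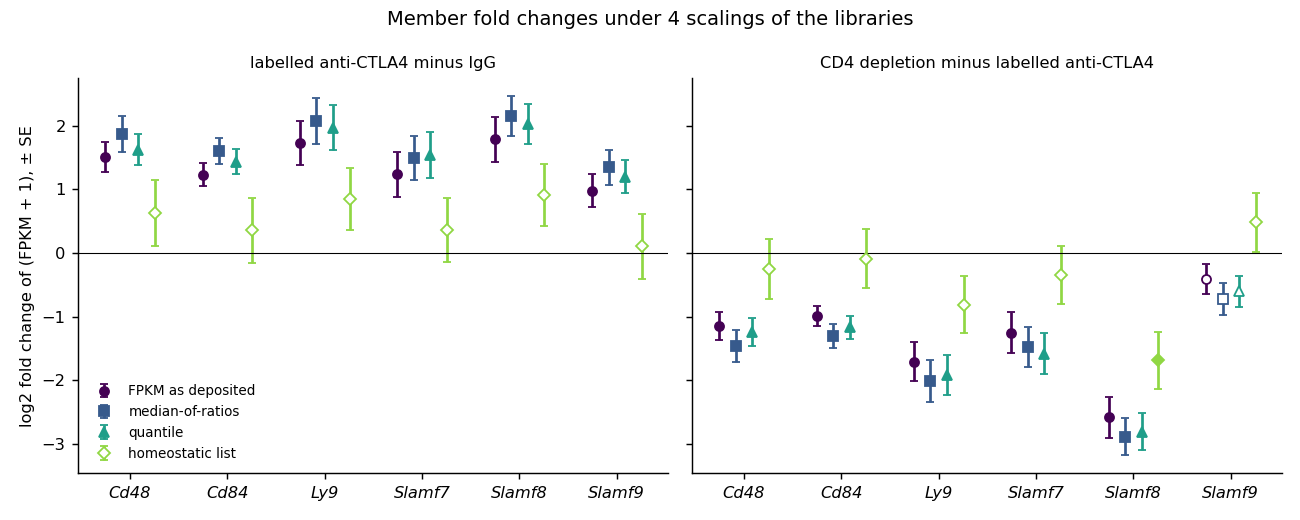
Log2 fold change of FPKM + 1 (vertical axis, bars are SE) of each member under 4 scalings of the libraries, for labelled anti-CTLA4 minus IgG (left) and CD4 depletion minus labelled anti-CTLA4 (right); filled symbols have a limma adjusted p under 0.05. The diamonds, scaled to the homeostatic list, are open on the left, and on the right only that of Slamf8 is filled.

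The third comparison, CD4 depletion with the antibody against IgG, gave no call. Of the 6 members 0 passed by limma, as did 0% of all genes, and 851 genes had an unadjusted p under 0.05. Slamf8 was the lowest member, at -0.79 (SE 0.32, limma adjusted p = 0.71), with every depletion library below IgG, as were 16.2% of genes. Slamf9 was the highest, at 0.57 (SE 0.23, limma adjusted p = 0.71), with every depletion library above IgG, as were 11% of genes. The unadjusted p was 0.0418 for Slamf8 and 0.0431 for Slamf9. Without CD4 depletion replicate 1 the log2 fold change of Slamf8 was -0.48, and without IgG replicate 1 that of Slamf9 was 0.27. The values of the other 4 were 0.36 (Cd48), 0.24 (Cd84), 0.03 (Ly9) and -0.01 (Slamf7). The Y-linked gene Eif2s3y stood at 4.34 to 6.86 FPKM in the depletion libraries and at 0.335 to 1.06 in the others. Xist, an RNA of female cells, stood at 2.42 to 3.42 with depletion, 2.16 and 2.48 with IgG and 3.85 and 6.08 under the anti-CTLA4 label. Xist was thus present in every group. A difference in sex cannot be told apart from depletion in the comparisons that involve that group.

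A ratio of 2 members within a library does not depend on how libraries are scaled. The ratio of Slamf8 to Slamf9 in FPKM was 0.460 and 0.473 with IgG, 0.995 and 0.736 in the libraries labelled anti-CTLA4, and 0.0942, 0.264 and 0.181 with CD4 depletion. The 3 groups did not overlap, and the ratio was lowest with depletion. The mean log2 ratio with depletion differed by -2.38 from that under the anti-CTLA4 label and by -1.5 from that with IgG. Each had a two-sided exact permutation p of 0.2, the smallest that 2 libraries against 3 can give, and a p of 0.4 after Benjamini-Hochberg adjustment over 18 tests of 6 ratios. These ratios were chosen after the values had been seen.

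Slamf8 was low with depletion against other members as well. Its ratio to Cd48 was 0.283 and 0.386 with IgG, 0.410 and 0.436 in the libraries labelled anti-CTLA4, and 0.0616, 0.228 and 0.179 with depletion. Its ratio to Cd84 was 0.360 and 0.482, then 0.729 and 0.566, then 0.101, 0.275 and 0.232. In both ratios the 3 groups did not overlap. The lowest value came each time from CD4 depletion replicate 1, the library with the monocyte RNA, and the other 2 depletion libraries were also under IgG. As a share of the summed FPKM of the 6 members, Slamf8 made up 9.64% to 11.6% with IgG, 14.1% to 14.5% in the libraries labelled anti-CTLA4 and 2.43% to 7.31% with depletion.

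Cd48 and Cd84 kept closer to each other. Their ratio ranged from 1.25 to 1.27 with IgG, from 1.30 to 1.78 in the libraries labelled anti-CTLA4 and from 1.21 to 1.65 with depletion, and the depletion libraries overlapped both other groups. Over the 7 libraries, which share their groups, the log2 levels of Cd48 and Cd84 had a Pearson r of 0.96 and those of Slamf8 and Slamf9 one of 0.48, the highest and the lowest of the 15 pairs. These correlations describe 7 libraries and have no test.

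**Figure D4:**
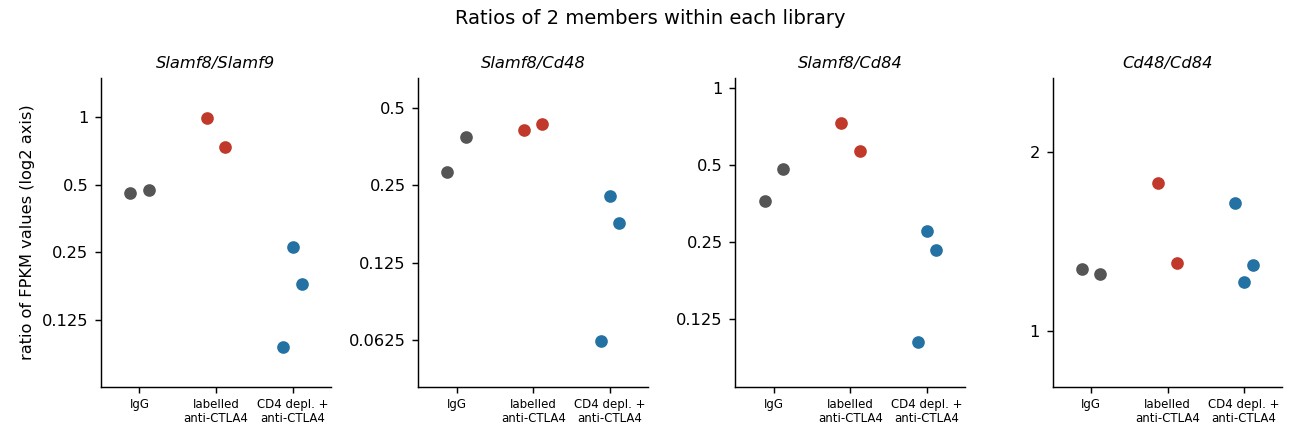
Ratio of the FPKM values of 2 members within each library (vertical axes, log2 scale) for IgG, labelled anti-CTLA4 and CD4 depletion with anti-CTLA4; each point is a library. Blue points lie under the grey and red ones in the 3 ratios of Slamf8, and in the ratio of Cd48 to Cd84 they overlap both other groups.

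Genes outside the family were ranked by how closely their log2 levels followed each member over the 7 libraries, among 7694 tested genes with a mean of at least 5 FPKM, predicted genes (names in Gm, LOC or Rik) left out. Cxcl9, a chemokine that draws T cells and is induced by interferon-gamma, was the closest to Slamf8 (r = 0.983). It stood at 4.89 and 8.36 FPKM with IgG, at 29.9 and 23.1 in the libraries labelled anti-CTLA4, and at 0.510, 4.31 and 2.14 with depletion, so its depletion libraries also lay under IgG. Next to Slamf8 were Tmem141 (0.981) and B4galt4 (0.979). For Ly9 the closest were Lgals3bp (0.991), Ly6i (0.987) and Bst2 (0.982), an antiviral membrane protein. Ly6i was at 19.1 and 10.9 FPKM in the libraries labelled anti-CTLA4 and at 0.614 to 3.08 elsewhere. Cxcl9 and Ly6i reached the mean of 5 FPKM only through the libraries labelled anti-CTLA4, so the filter favoured their likeness to the members. For Cd48 they were Ppp1r21 (0.997), Ppt1, a lysosomal thioesterase (0.996), and Vamp8, a vesicle fusion protein (0.996). For Cd84 they were Pik3ap1 (0.993), Elf1 (0.992) and Cmtm7 (0.991). For Slamf9 they were Fam98c (0.991), Tcirg1, a subunit of the vacuolar proton pump (0.982), and Arhgap4 (0.981). Many genes came close: 180 had an r over 0.95 with Cd48, 217 with Cd84, 43 with Ly9, 39 with Slamf8 and 27 with Slamf9. Slamf7, with a mean under 5 FPKM, was not ranked.

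The other SLAM receptors and the partners of CD48 were mostly scarce. Slamf6 (Ly108), a self-binding receptor beside Cd84, behaved like the members, at 5.06 and 5.61 FPKM with IgG, 16.8 and 16.0 in the libraries labelled anti-CTLA4 and 6.42, 5.18 and 6.41 with depletion. It rose by 1.46 (SE 0.17, limma adjusted p = 0.00936) in the first comparison and was at -1.32 (SE 0.16, limma adjusted p = 0.0114) in the second. Slamf1 (CD150) was at 0.751 and 0.528 FPKM with IgG, 2.21 and 1.73 in the libraries labelled anti-CTLA4 and 0.271, 1.05 and 0.851 with depletion. It was tested because the libraries labelled anti-CTLA4 reached 1 FPKM, so its log2 fold changes of 0.86 and -0.81 (limma adjusted p = 0.0444 and 0.0479) are given as values and not counted as support. Cd244, a receptor for CD48, passed in neither. It was at 12.3 FPKM in CD4 depletion replicate 1 and at 0.332 to 3.58 in the other 6 libraries. Cd2, the other receptor, was at 0.146 to 1.09 FPKM and was not tested.

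The adaptors that carry SLAM signals in lymphocytes were scarce. Sh2d1a, which encodes SAP, was at 0 to 0.264 FPKM, and Sh2d1b1, which encodes EAT-2, at 0.032 to 1.75, above Slamf7 in CD4 depletion replicates 1 and 3. Kinases and phosphatases that act on tyrosine motifs were present. Of 14 tested adaptor and signalling genes, 6 rose and 3 fell in the first comparison, with a median of 0.74, and 6 fell and 2 rose in the second, with a median of -0.42. Over all genes 9.29% were higher and 28.8% lower in the first, and 6.59% lower and 22.8% higher in the second. Ptpn6 (SHP-1), a phosphatase bound by inhibitory receptors, was at 53.9 and 67.2 FPKM with IgG, 161 and 170 in the libraries labelled anti-CTLA4 and 109, 72.3 and 89.1 with depletion. Its log2 fold changes were 1.44 (SE 0.22) and -0.89 (SE 0.20).

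Vav1, a guanine exchange factor below immune receptors, had 1.24 and -0.85, and Lyn, a Src-family kinase of myeloid and B cells, had 1.07 in the first comparison and -0.81 in the second. Fyn, the kinase that SAP recruits, went the other way, with -2.72 (SE 0.44) and 1.81 (SE 0.40). It was at 83.7 and 110 FPKM with IgG, 19.4 and 9.54 in the libraries labelled anti-CTLA4 and 31.0, 73.6 and 55.8 with depletion, beside the tumour and precursor markers, which fell and rose in the same comparisons. Plcg2, a phospholipase below immune receptors, moved with the members, at 0.88 and -0.60.

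Lymphocyte markers were described as well, since some of the receptors are known from T, B and NK cells. Gzmb and Jchain, given below, reached levels like those of Slamf7, which stood at 0.404 to 4.0 FPKM. The 17 T cell genes with a row summed to 6.17 to 7.32 FPKM with IgG, 10.04 to 11.2 in the libraries labelled anti-CTLA4 and 7.99 to 9.68 with depletion, and 12 of 17 were under 1 FPKM in every library. Cd3e, part of the T cell receptor complex, was at 0.307 to 1.07 FPKM and was highest in labelled anti-CTLA4 replicate 1. The 10 NK and innate lymphoid genes summed to 2.59 to 2.71, 4.49 to 9.49 and 2.77 to 4.41 in the same order of groups, and 6 of 10 were under 1 FPKM in every library. Ncr1 was at 0 to 0.149. Gzmb was at 0.157 and 0.158, then 0.931 and 3.79, then 0.085 to 0.463 in that order. The 8 B and plasma cell genes summed to 8.0 to 9.41, 24.7 to 26.2 and 7.76 to 14.8, most of it in the libraries labelled anti-CTLA4 from Cd79b, at 19.5 and 21.3 FPKM. Pax5, a factor that defines B cells, was listed at 0 in 5 of the 7 libraries, and 4 of the 8 genes were under 1 FPKM in every library. Jchain, from the same list, was at 0.756 and 0.493, then 2.19 and 2.39, then 4.04, 0.169 and 0.071 in that order of groups. The sums of all 3 lists were higher in both libraries labelled anti-CTLA4 than in either IgG library, and their part in Slamf7, Ly9 and Slamf1 was not tested. Markers of microglia were abundant, with Cx3cr1 at 211 to 752 FPKM.

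The genes beside the family were counted in the same way. Of 30 listed neighbours 24 were tested, of which 3 were higher and 6 lower in the first comparison, with a median of -0.31, equal to that of all genes at 2 decimals. Over all genes 9.29% were higher and 28.8% lower, and the pooled neighbours' counts were near those shares. The stretches differed, and all 3 higher neighbours lay before Cd244. There 3 of 10 tested genes were higher and 3 lower in the first comparison, and 2 were lower and 1 higher in the second. Before the family, F11r, a junctional adhesion molecule, was the nearest neighbour to pass, with 1.11 (SE 0.31, limma adjusted p = 0.028) in the first comparison and -1.05 (limma adjusted p = 0.032) in the second. Directly after Slamf6, Vangl2, a planar polarity gene, had -1.53 (limma adjusted p = 0.0216) and then 0.92, which did not pass. In the stretch between Slamf6 and Slamf9, 0 of 10 tested genes were higher and 3 lower in the first comparison, and 0 passed in the second. After Slamf9, 0 of 4 passed in either.

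**Figure D5:**
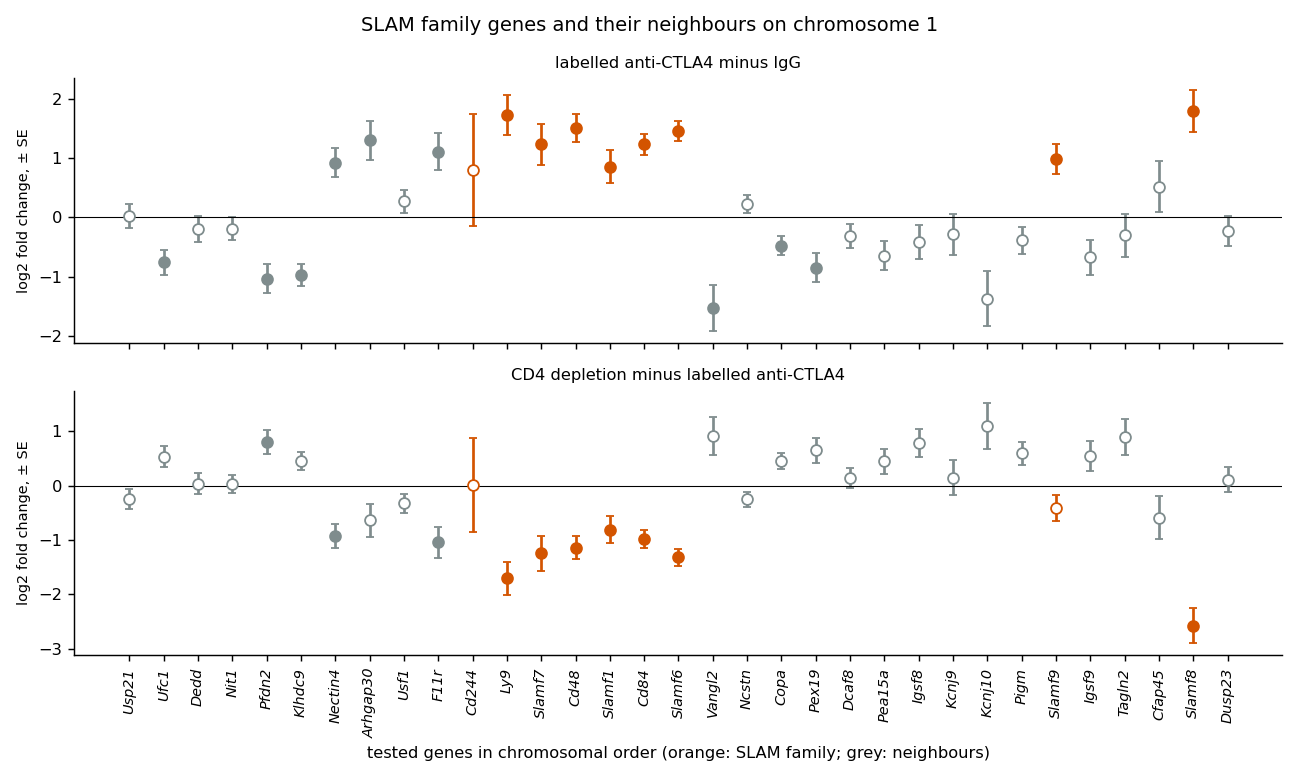
Log2 fold change of FPKM + 1 (vertical axes, bars are SE) of the tested SLAM family genes (orange) and the listed neighbours (grey) in their order along chromosome 1, for labelled anti-CTLA4 minus IgG (top) and CD4 depletion minus labelled anti-CTLA4 (bottom); filled points have a limma adjusted p under 0.05. On top, all orange points but Cd244 are filled and above 0, while the grey points between Slamf6 and Slamf9 are open or below 0.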

How the data were processed

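Microglial RNA from 7 libraries was measured by RNA sequencing. Per the file headers, the authors' deposited FPKM values came from HOMER's exon counting on mm10, with 1 entry per gene and reads of both strands. STAR, HOMER and DESeq2 are named in the submitters' processing notes, and their versions are not given in the sources used here. Totals implied by low values (transcripts of 200 to 800 nucleotides, values of up to 20 reads) assume whole reads, and each library had 268 to 301 of them, 100% within 0.1 of a whole number.

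The test was limma (3.58.1, R 4.3.3) on log2(FPKM + 1), a scale that understates the fold changes of scarce genes. One fit covered the 3 groups and 13028 genes, each reaching 1 FPKM in 2 or more libraries, with a mean-variance trend. Tests were two-sided and called at a Benjamini-Hochberg adjusted p under 0.05. All 6 members passed the filter. The 16 alternatives are in the closing section. Exact permutation of 2 libraries against 2 or 3 cannot reach the threshold.

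Members and lists were chosen with earlier results of these data known. The text names every member, at most 6 genes of each pathway list by smallest adjusted p plus fixed partners and adaptors, the 3 genes most correlated with each member, the nearest passing neighbours and up to 3 markers per list; 1 signalling gene that the rule names is not reported here. Motifs were chosen after the promoter sequences (RefSeq, GRCm38.p6) had been seen.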

Additional observations from a re-analysis of the deposited data

How the results depend on the processing

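Each comparison was repeated under 16 alternatives. Of 285 member fold changes, 230 kept their direction and side of the threshold, 43 kept the direction and lost the call, 0 gained one and 12 changed sign, 11 of them in CD4 depletion against IgG, where none was called. Leaving out 1 library gave 0 to 6 members and 0 to 6069 genes called for labelled anti-CTLA4 against IgG, and 0 to 5 members and 0 to 5291 genes for CD4 depletion against labelled anti-CTLA4. Scaling to the homeostatic list gave 0 members in the first comparison, 1 member and 8309 genes in the second, and 83 genes in the third; there Slamf9 had 0.49 in the second and Slamf7 0.0113 in the third. With no filter on low values, 2477 genes were called in the second comparison. The replicate numbers share nothing stated in the labels, so they were not used to pair the libraries. Same-numbered libraries deviated together at r = -0.205 to 0.123. In a group of 2 libraries the deviations mirror each other, so these values cannot exclude a pairing. With the number as a replicate block, 4 members and 2665 genes were called in the first comparison and 0 members and 0 genes in the second, and the third had Slamf7 at 0.0153 and Ly9 at -0.0498. In the third comparison Slamf7 was at 0.11 with a pseudocount of 0.1 and 0.0196 with median-of-ratios scaling, and from -0.52 to 0.49 with a library left out, where Ly9 ranged from -0.16 to 0.25. The causes were not tested. Slamf7 rested on the fewest reads, 119 in IgG replicate 1. Read totals cover counting error only.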
